A study of Mus musculus with 6 samples.

Results

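The cytosolic ribosomal proteins are the protein building blocks of the ribosomes that translate nuclear-encoded messenger RNA. On these arrays they comprised every non-control probe named Rpl or Rps with a following digit, plus Rplp0, Rplp1, Rplp2 and Rpsa, without the Rps6k kinases, pseudogenes and names ending in l1 or l2. The rule took 141 probes of 83 genes, and 82 of these genes were among the 16386 genes tested. Rpl3l, a paralogue of striated muscle, was the gene left untested: its probe was above background on 1 TGC3 array and 1 TG array. The rule used names and no measured value. It also took Rps19bp1, a nucleolar regulator that binds RPS19 and is no part of the ribosome, and it missed Fau and Rack1, whose products are ribosomal proteins.

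The RNA was that of liver CD8+ T cells, obtained by sorting. Donors were C57BL/6 females between 13 and 14 weeks of age. The dnTGFβRII transgene, which encodes a dominant negative form of TGF-beta receptor II, was present in both groups. The TG group had the transgene alone, and the TGC3 group was dnTGFβRII CXCR3-/-, lacking the chemokine receptor CXCR3 as well. Each group had 3 samples, each read on an Agilent one-colour array. The design addresses what CXCR3 contributes to these cells, and it has no wild-type group. The labels do not say that the samples were separate mice, so p-values measure only the spread between these samples. All TGC3 arrays shared slide 1 and scan 1 and all TG arrays slide 2 and scan 2, so slide and genotype cannot be told apart.

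A ribosome joins a small subunit, which decodes the messenger RNA, to a large subunit, which forms the peptide bond and carries the stalk that recruits elongation factors. The genes for its proteins are expressed together and strongly in nearly all cells, and their messenger RNAs begin with a run of pyrimidines (the TOP motif) through which mTOR and LARP1 control their translation. T cells build many ribosomes when they are activated and begin to divide.

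Levels are the log2 of the deposited processed intensity minus the array's own 75th percentile, and a change is the mean TGC3 level minus the mean TG level. The 75th percentile was 594 to 623 intensity units on the TGC3 arrays and 561 to 620 on the TG arrays, and 58.9% to 63.8% of probes were well above background on an array. Cxcr3, the deleted gene, read 23.8, 33.0 and 27.0 intensity units on the TGC3 arrays against 68779, 66107 and 73352 on the TG arrays (limma, change -11.35 ± 0.12 SE, adjusted p = 9.64e-07). Arrays correlated at 0.993 to 0.995 within groups and 0.983 to 0.986 between them, across genes, which are not independent replicates.

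The members' probes were bright: 136 of the 141 were above background on all 6 arrays, and 76 of the 82 tested genes fell in the brightest 10% of all genes. No spot was saturated on any array (0 spots). Stretches of the probes on which the results turn are printed here, the first 30 of 60 bases, with G and C in capitals because base composition varied with the change:
Rpl29 across a splice junction (-0.26): aGGtGCaGaCatGGCCaaGtCCaaGaaCCa
Rpl29 further downstream (0.39): aaGaaGCaCaaCaaGaaaGGCCtGaCtaaG
Rpl28 (-0.25): CCatGtCCGCGCatCtGCaGtGGatGGtCG
Rps10 (-0.25): aCatttCtaCtGGtaCCttaCGaaCGaGGG
Rpl21 (0.65): GGCaGCCCtCGGGCCttGtaaGaGCGCGCa
Rps6 bright probe (-0.0049): GttCtCaaCttGGtCattGtaaaGaaaGGa
Rps4x clone BE915090 (1.24): CCaCaGaCCtGtCaCtGaCGaCCGaCaCaC
Rplp2 (0.056): CGaCatGGGGtttGGCttGtttGattaaat
Rps27a (0.15): CtGCttCaaCaaaCCaGaaGaCaaGtaGtt
The value beside each name is its probe's change.

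Ribosomal protein messenger RNA levels differed by small amounts between the 2 genotypes. Of the 82 genes, 8 were lower and 1 was higher in TGC3 at an adjusted p under 0.05 (limma, adjusted over all genes), while 73 passed in neither direction. The 8 are 9.76% of the members, near the 9.44% called lower among all genes, and the 1 higher gene stands where 16.6% of all genes were higher. In either direction 9 members passed, against 26.0% of all genes. At an unadjusted p under 0.05 limma had 24 lower (29.3%) and 1 higher, against 17.5% lower and 22.5% higher among all genes. The median change of the members was -0.086, and 71 of 82 lay below 0. The other genes of the brightest 10%, 1563 in number, had a median of -0.085, 187 called lower and 25.5% lower at an unadjusted p.

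The spread within groups was small for most of these bright probes. The 95% interval of the change lay wholly within 0.5 log2 units either side of 0 (1.41-fold) for 75 of the 82 members (91.5%) and for 56.6% of all genes. Among the 77 genes of the core ribosome, without paralogues and Rps19bp1, that was so for 73. These intervals measure only the spread between arrays of a group. They cover neither the slide, which goes with genotype, nor the way of processing. Across the ways tried the members' median ran from -0.26 (centring on the median) to 0.36 (plain normexp). The median level of the members on each array was 8.22, 8.26 and 8.16 in TGC3 and 8.29, 8.30 and 8.20 in TG. Groups thus overlapped in this summary, with TG 3 below TGC3 1 and TGC3 2.

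**Figure D1:**
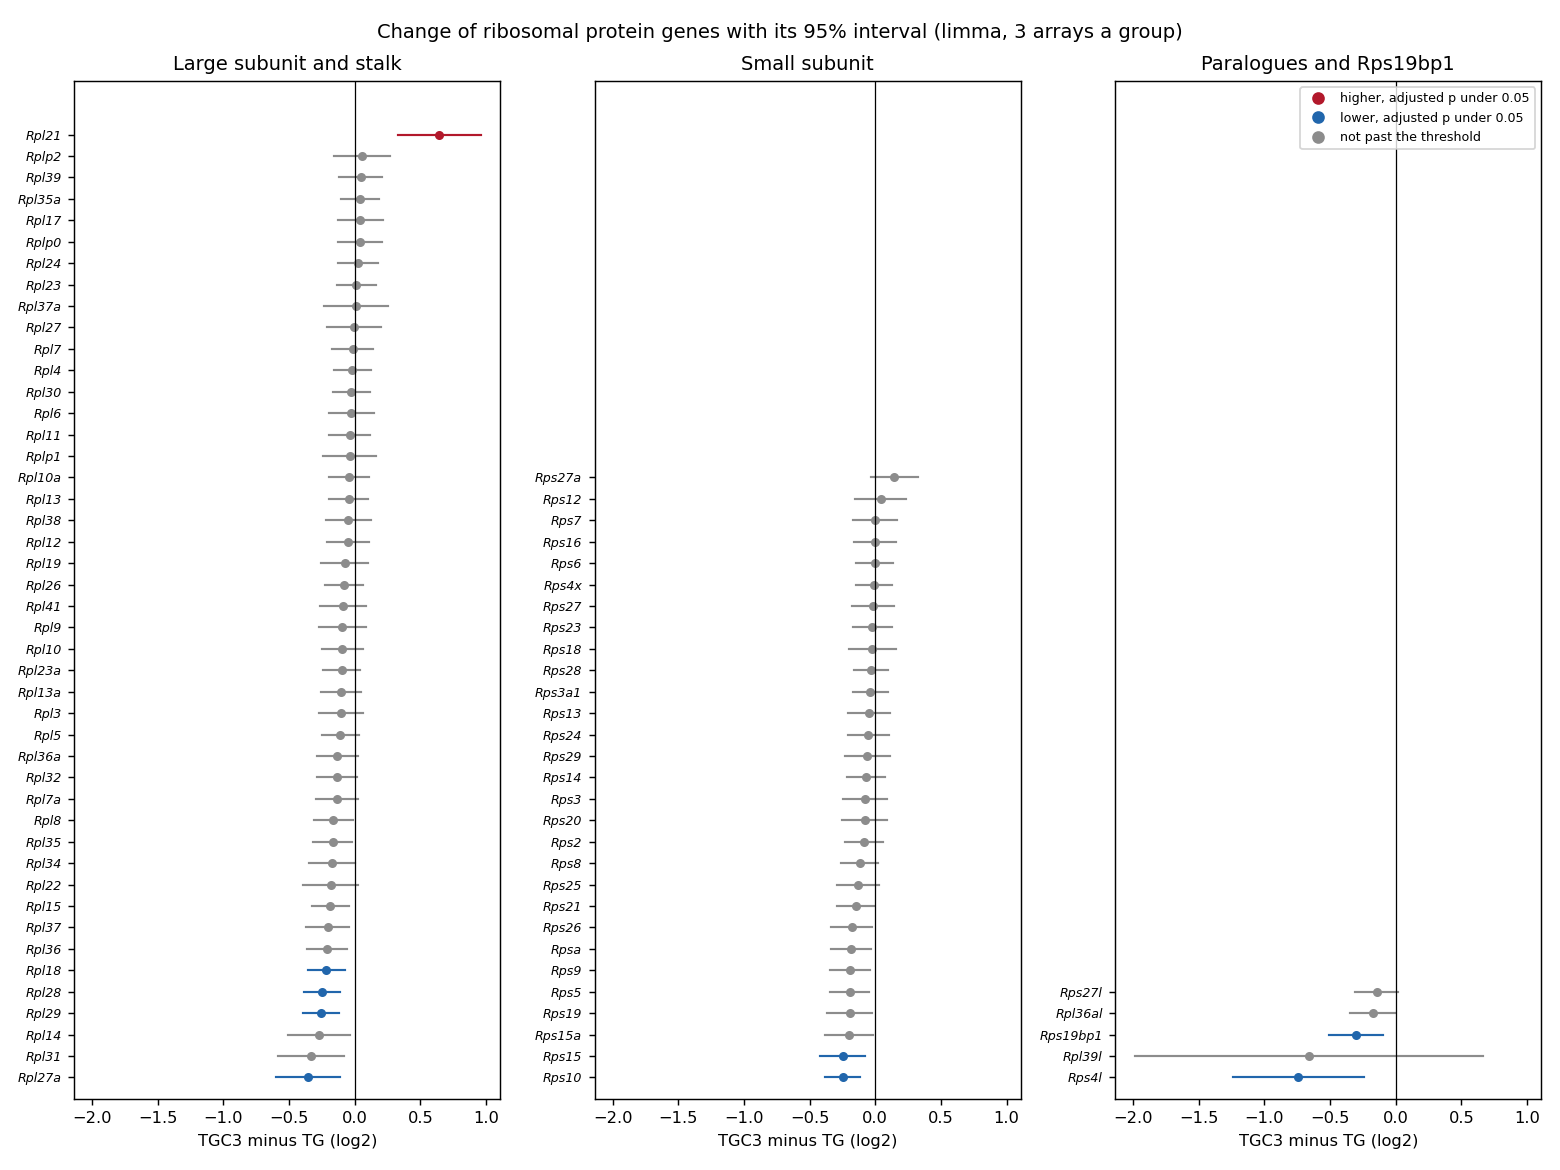
Change of the ribosomal protein genes shown (TGC3 minus TG, log2, horizontal axis) with its 95% interval from limma, 3 arrays a group, for the large subunit and stalk, the small subunit, and the paralogues with Rps19bp1. Rpl21 stands at 0.65, 8 genes are lower past the threshold, and most intervals reach or cross 0.

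The large subunit, stalk included, had 46 genes tested, of which 4 were lower, 1 was higher and 41 did neither, with a median of -0.090. That is 8.70% lower, where 9.44% of all genes were lower and 16.6% higher. Lower genes of the large subunit were Rpl27a, Rpl28, Rpl29 and Rpl18. Rpl27a read 3.79, 4.04 and 3.71 in TGC3 and 4.19, 4.14 and 4.27 in TG. Groups did not overlap, and the change was -0.35 ± 0.10 (SE, adjusted p = 0.0476). Its probe lies at chr7:116665756-116665815 on the plus strand of mm9, the build of all probe positions here. That probe's mean level, 4.02, was low beside the members' median of 8.16 to 8.30 on each array.

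Rpl28, another large subunit gene, read 7.22, 7.27 and 7.18 in TGC3 against 7.46, 7.46 and 7.50 in TG. All TGC3 values lay below all TG values (change -0.25 ± 0.056 SE, adjusted p = 0.0238, 84.0% of the TG level). Rpl29, which encodes a small, lysine-rich protein of the large subunit, read 6.61, 6.59 and 6.54 against 6.85, 6.86 and 6.82 (change -0.26 ± 0.056, adjusted p = 0.0217). Rpl18 read 7.64, 7.64 and 7.59 against 7.78, 7.88 and 7.86, again without overlap (change -0.22 ± 0.059, adjusted p = 0.0426).

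Rpl21 was the member that passed in the other direction. It read 2.72, 2.76 and 2.65 in TGC3 and 2.24, 2.16 and 1.78 in TG, a change of 0.65 ± 0.13 (SE, adjusted p = 0.0174). The groups did not overlap, and TG 3 lay below the other TG arrays. The mean level was 2.38, where the members' median was 8.16 to 8.30 on each array. That places it among the dim member probes described further on. Whether it reads the main Rpl21 messenger RNA was not tested. This probe (chr5:147644677-147644736) was 75% G and C, and Rpl21 was read only by it and by a dimmer probe 3590 bases downstream, which had a change of -0.14 ± 0.067 and did not pass (adjusted p = 0.176).

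The small subunit had 31 genes tested, with 2 lower, 0 higher and a median of -0.071 (limma, 10 lower and 0 higher at an unadjusted p under 0.05). That is 6.45% lower, below the 9.44% of all genes, and 16.6% of all genes were higher. Rps10, whose protein sits on the beak of the small subunit, read 7.65, 7.64 and 7.58 in TGC3 against 7.87, 7.87 and 7.87 in TG. The 3 TG arrays had an SD of 0.0011, and every TGC3 array lay below them (change -0.25 ± 0.055 SE, adjusted p = 0.0227). Rps15 read 6.93, 7.02 and 6.85 against 7.21, 7.21 and 7.12 and passed with little room (change -0.25 ± 0.070, adjusted p = 0.0483). Rpl36, of the large subunit, was just short of the threshold (-0.21, adjusted p = 0.0527).

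The remaining members past the threshold are not standard subunits. Rps4l, a relative of Rps4x that RefSeq lists under a non-coding accession and the files call Rps4y2, read -1.35, -1.39 and -0.92 in TGC3 and -0.62, -0.72 and -0.094 in TG (change -0.74 ± 0.21 SE, adjusted p = 0.0446). These groups did not overlap, though TG 3 stood well above the other TG arrays. Rps19bp1 read 2.25, 2.37 and 2.29 against 2.48, 2.62 and 2.72 (change -0.30 ± 0.083, adjusted p = 0.0436).

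Most of these calls were lost when 1 array was left out. In limma fits without TGC3 1 no member was called (0 lower and 0 higher, with 13 lower and 1 higher at an unadjusted p under 0.05). Without TGC3 3, TG 1 or TG 3, 1 was called lower. Without TG 2, 0 were (10 unadjusted), and without TGC3 2, 9 were. Over these 6 fits all 9 kept their direction. The change of Rpl28 ranged from -0.27 to -0.23 and that of Rps10 from -0.26 to -0.23. Ranges were wider for Rps4l (-0.89 to -0.55), Rpl27a (-0.45 to -0.28), Rps19bp1 (-0.37 to -0.24) and Rpl21 (0.50 to 0.74). Across the ways of processing tried, the members' median was below 0 in all but plain normexp background correction, where it was 0.36.

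**Figure D2:**
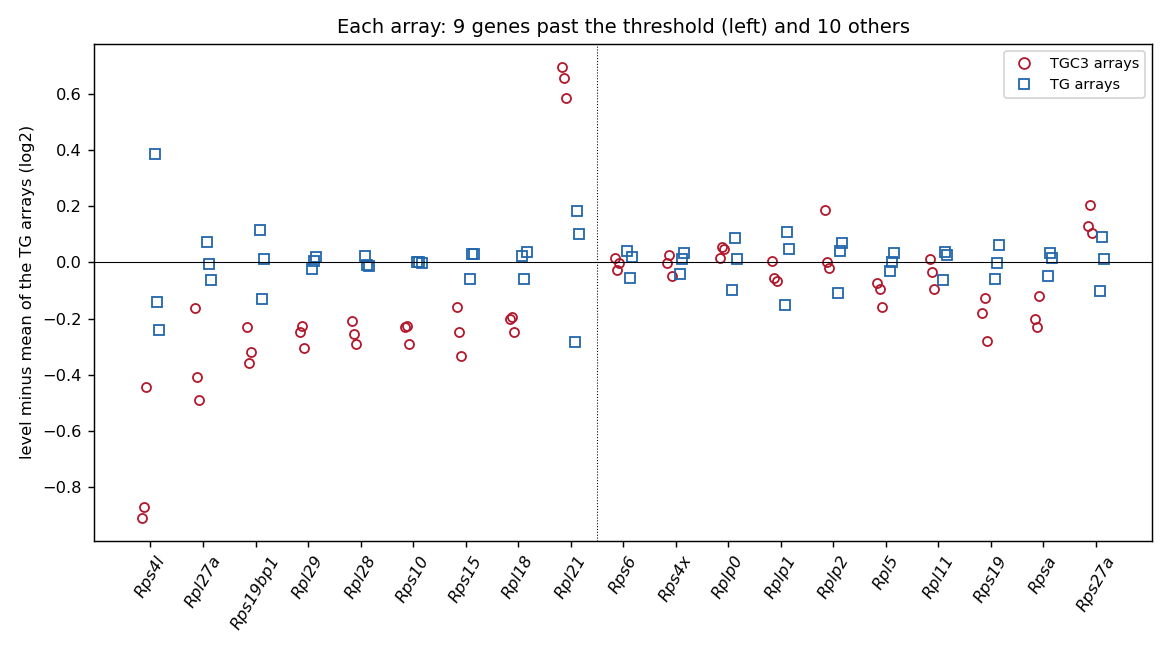
Level of each array minus the mean of the TG arrays (log2) for the 9 genes past the threshold, left of the dotted line, and for 10 other members, with circles for TGC3 and squares for TG. The circles of Rpl28, Rpl29 and Rps10 lie wholly under their squares, and those of Rps6 and Rps4x lie among them.

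The other members with known special roles did not pass. The stalk proteins Rplp0, Rplp1 and Rplp2, which recruit the translational GTPases, had changes of 0.040 ± 0.069, -0.039 ± 0.084 and 0.056 ± 0.087 (SE), and adjusted p of 0.701, 0.758 and 0.667. Rplp0 read 8.58, 8.54 and 8.58 in TGC3 and 8.61, 8.54 and 8.43 in TG, so the groups overlapped. Its 95% interval ran from -0.13 to 0.21, and Rplp0 is often used as a reference gene.

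Rps6, the substrate of the S6 kinases that reports mTOR activity, read 7.03, 7.07 and 7.05 in TGC3 and 6.998, 7.07 and 7.09 in TG. Groups overlapped, and the change was -0.0049 ± 0.058 (95% interval -0.15 to 0.14). Rps4x, the X-linked partner of Rps4l, had a change of -0.0093 ± 0.058 (interval -0.15 to 0.13). Both values are those of the gene's brightest probe.

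Rpl5 and Rpl11, which with the ribosomal 5S RNA bind MDM2 when ribosome assembly fails, had changes of -0.11 ± 0.058 (adjusted p = 0.213) and -0.039 ± 0.063 (adjusted p = 0.679). Rpl22, whose loss in mice is known to block early αβ T cell development, read 7.25, 7.40 and 7.16 against 7.50, 7.50 and 7.35, with overlapping groups (change -0.18 ± 0.086, adjusted p = 0.170). Rps19, the gene most often mutated in Diamond-Blackfan anaemia, read 8.66, 8.61 and 8.50 against 8.78, 8.85 and 8.73. Its groups did not overlap, and it did not pass (change -0.20 ± 0.070, adjusted p = 0.0887). Of 9 genes listed for that disease, 1 was lower, Rps10 (11.1%, near the 9.44% of all genes), and the median was -0.11.

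Rpsa, the small subunit protein that is also known as a laminin receptor, had a change of -0.18 ± 0.062 (adjusted p = 0.0783). Rps27a, which encodes ubiquitin fused to a ribosomal protein, was the only member besides Rpl21 whose TGC3 arrays all lay above the TG arrays: 7.78, 7.70 and 7.68 against 7.66, 7.58 and 7.47. It did not pass (change 0.15 ± 0.073, adjusted p = 0.193). In all, 36 members had every TGC3 array below every TG array (22.4% of all genes did) and 2 had the reverse (24.3% of all genes).

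All 4 paralogues tested had changes below 0, and 1, Rps4l, passed (25.0% lower, against 9.44% of all genes). Rpl39l, a paralogue of the male germ line, was dim and variable, at -1.68, -3.69 and -2.33 in TGC3 and -1.31, -2.02 and -2.37 in TG, and its change of -0.66 had an interval from -1.99 to 0.66. Rpl36al and Rps27l, both broadly expressed, had changes of -0.18 ± 0.071 and -0.14 ± 0.067 (adjusted p = 0.119 and 0.163). Neither passed, although their groups did not overlap.

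The probes of highest signal included those of Rps18, Rps23, Rps16, Rpl7a and Rps14. Their changes were -0.023, -0.022, -0.0026, -0.14 and -0.071, and none of these passed (adjusted p from 0.173 to 0.980). Split by mean level, the lowest 28 members held all 9 calls and had a median of -0.18. The middle and highest 27 had medians of -0.059 and -0.071 and 0 calls each. Among all genes 26.0% were called in either direction.

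**Figure D3:**
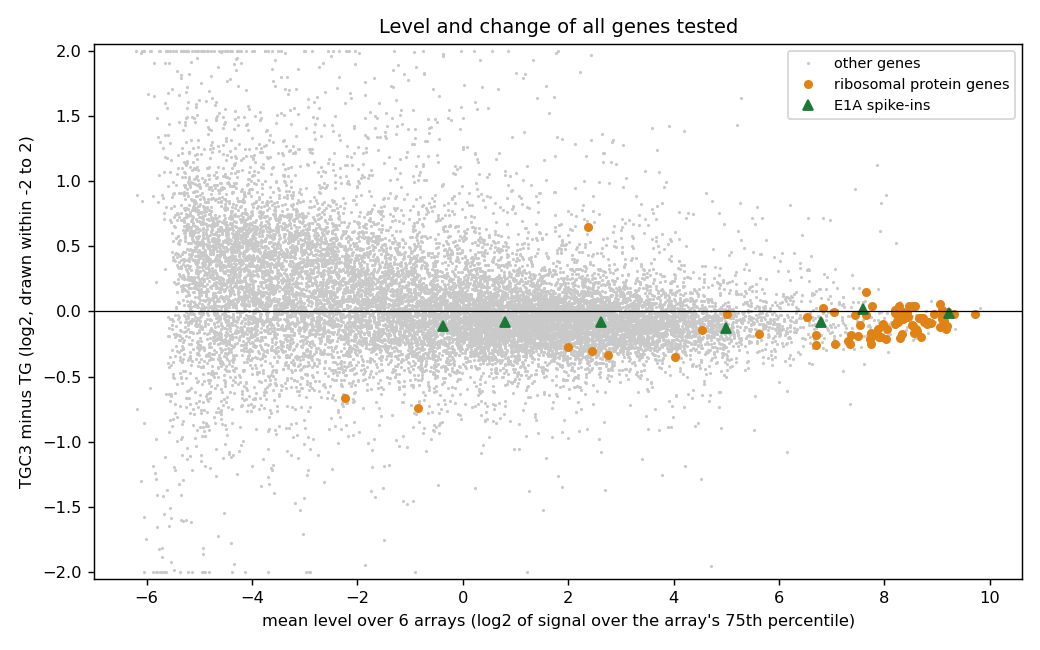
Change (TGC3 minus TG, log2, vertical axis, drawn within -2 to 2) against mean level over the 6 arrays for all genes tested, with ribosomal protein genes as circles and the 7 brighter E1A spike-ins as triangles. The members lie at the bright end, mostly a little below 0, beside spike-ins that lie between -0.13 and 0.017.

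The E1A spike-ins, control transcripts that Agilent's labelling protocol adds in fixed amounts, gave a reference outside the cells. Scaled like the genes, the 7 brighter ones had changes of -0.13 to 0.017. The brightest, at 9.23 in TGC3 and 9.24 in TG, had -0.013, and only the brightest members reached that level. Nearer the level of most genes called lower, spike-ins n9, n11 and a97 read 7.61, 6.77 and 4.94 in TGC3. Their changes were 0.017, -0.078 and -0.13. With arrays scaled on the 7 brighter spike-ins instead, a choice made after the data were seen, the members' median was -0.018. Then 0 were lower and 1 higher in limma (1 lower and 1 higher at an unadjusted p under 0.05). Whether the small shift of the members belongs to the cells was not tested.

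Among bright member probes the change varied with base composition. Over the 109 tested member probes of level above 3, Spearman's rho between percent G and C and the change was -0.60 (Pearson's r -0.52). The same over 2812 other probes above that level was -0.17 (r -0.013). Over the 28 member probes below it, rho was 0.043 and r 0.39. Probes share arrays, and several share a gene, so these are descriptions. In the 37 probes with the least G and C (30% to 45%) the median change was -0.017. It was -0.082 in the middle 36 (45% to 50%) and -0.16 in the 36 with the most (50% to 55%). With 1 probe a gene, 76 in all, rho was -0.65, and it stayed between -0.65 and -0.61 when each array was left out in turn.

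The relation did not come from a single array. Each probe's deviation from its mean over the 6 arrays had a rho with G and C of -0.47, -0.46 and -0.54 on TGC3 1 to 3 and 0.44, 0.59 and 0.45 on TG 1 to 3, values that are not independent since deviations sum to 0. The split runs with genotype, and so with slide and scan. Rpl28, Rpl29, Rps15 and Rpl18, all called lower, were read by probes of 55% G and C, and Rps10 by one of 50%. Rpl36, Rpl37 and Rps19, just short of the threshold, had 55% too, whereas Rps6, Rps4x, Rplp0, Rplp1, Rplp2 and Rps27a had 36.7% to 43.3%. Other called genes did not follow the pattern. The probes of Rpl27a and Rps4l had 45% and that of Rps19bp1 48.3%, and Rpl21, called higher, had 75%. Rps18, at 55%, had a change of -0.023. Changes also differed along a gene at like base composition. From upstream to downstream, Rpl7 probes of 45%, 45% and 43.3% had -0.16, -0.11 and -0.013. Rps18 probes above a level of 3, both of 55%, had -0.13 and -0.023. Rpl23 went the other way, from 0.012 (43.3%) to -0.35 (40%). The parts of base composition and of position in these calls were not separated and not tested.

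Many members had several probes, and these often disagreed. At the level of probes, 137 member probes were tested among 25103, and 14 were lower and 7 higher (8.37% and 13.7% of all probes). Of 44 genes with more than 1 tested probe, 17 had a probe past the threshold and another that was not, 27 had none past it and 0 had every probe past it. The median spread between a gene's probes was 0.18, and in 11 genes it exceeded 0.5.

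The calls gathered on the dim probes. Member probes split at a level of 3, a gap noticed after the values were seen, into 28 dim ones, with 9 lower and 3 higher, and 109 bright ones, with 5 lower and 4 higher. That is 42.9% called of the dim and 8.26% of the bright, against 22.9% and 15.5% of all probes below and above that level. The dim ones ranged from -0.99 to 1.24, with a median of -0.25, and the bright ones from -0.35 to 0.78, with a median of -0.095. Probes designed on clones, expressed sequence tags or Ensembl transcripts numbered 20, of which 8 passed (40.0%), against 13 of 117 (11.1%) on RefSeq transcripts. For all probes without a RefSeq accession the share was 26.7%, and for all probes 22.1%. Among the dim member probes alone, 7 of 13 from clones, tags or Ensembl passed (53.8%) and 5 of 15 from RefSeq (33.3%). The parts of level and of probe source were not separated and not tested. The 39 probes that span a splice junction, and so read spliced RNA, had 1 lower, 1 higher and a median of -0.11.

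Dim probes that fell lay beside bright probes that did not. Rps24 encodes a small subunit protein and has alternative 3′ exons. Its probe from clone AK135247 (chr14:25314669-25314728), 3347 bases downstream of the bright one, read -1.57, -1.47 and -1.71 in TGC3 against -0.67, -0.56 and -0.53 in TG. That is a change of -0.99 ± 0.085 (adjusted p = 0.00202), with groups far apart. The junction-spanning bright probe of Rps24 had a change of -0.052, and a further dim probe 4667 bases downstream had 0.11 (adjusted p = 0.277).

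Rpl11's clone AK014593 probe read 0.78, 0.74 and 0.66 against 1.63, 1.69 and 1.47, a change of -0.87 ± 0.082 (adjusted p = 0.00248). It lies (chr4:135605957-135606016) inside the stretch of genome that the bright, junction-spanning Rpl11 probe covers (chr4:135605885-135606207). The dim Rps28 probe (chr17:33960065-33960124) lies likewise inside the span of a bright one (chr17:33960051-33960186). Rps13 gave a like picture: its BC011192 probe had a change of -0.86 ± 0.069 (adjusted p = 0.00173) and its bright probe -0.048. Dim probes of Rpl27, Rps28 and Rps15a fell by 0.67, 0.65 and 0.63, beside bright probes at -0.0070, -0.034 and -0.20. The Rps15a one lies 10034 bases beyond the bright probe. Rpl37 had a dim probe at -0.44 and Rpl23 one of level 3.76 at -0.35, both past the threshold. The dim Rps15a and Rpl37 probes had mean levels of only -3.79 and -3.53. The deleted Cxcr3 still read -4.46 on average in TGC3, so the falls of these dim Rps15a and Rpl37 probes lie near the floor. The dim Rpl27 and Rps28 probes, at mean levels of -1.25 and 1.54, lay further above it. Whether the dim Rps15a and Rpl37 probes read RNA of these genes was not tested.

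Of the 3 dim probes called higher, 1 read Rps4x. This Rps4x probe from the tag BE915090, which has no position in the files, read -1.26, -1.20 and -1.26 in TGC3 and -2.49, -2.48 and -2.45 in TG. All arrays of a group agreed closely and the change was 1.24 ± 0.058 (adjusted p = 0.000431). Taking a gene's most variable probe in place of its brightest, Rps4x would thus have been called higher.

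Bright probes that rose were those of Rpl7a, Rps3a1, Rpl29 and Rpl30. The upper Rpl7a probe (chr2:26768694-26768753) was the bright one, at -0.14, and the lower one (chr2:26768740-26768798), 46 bases downstream, read 6.02, 6.15 and 5.92 in TGC3 and 5.25, 5.37 and 5.12 in TG. Both probes share 14 bases, in capitals in the facing ends:
Rpl7a upper probe, last 30 bases: tctgtggctcgaattgCCAAGCTGGAAAAA
Rpl7a lower probe, first 30 bases: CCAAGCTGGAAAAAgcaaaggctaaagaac
The lower probe's change was 0.78 ± 0.095 (adjusted p = 0.00464), and its G and C content 38.3% against 55%. A further Rpl7a probe upstream (chr2:26766993-26767052) had a change of -0.14.

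Rpl29 was the member whose probes passed in opposite directions. The probe of highest signal, across a junction, fell by 0.26 as above, and one 1467 bases downstream read 4.53, 4.54 and 4.50 in TGC3 and 4.12, 4.16 and 4.11 in TG, a change of 0.39 ± 0.057 (adjusted p = 0.00729). The groups of both probes were well separated. The 2 probes between them had changes of 0.016 and 0.086 and did not pass. Rps3a1 had a probe at 0.50 ± 0.070 (adjusted p = 0.00672) beside a brighter one at -0.037, and Rpl30 one at 0.29 ± 0.068 (adjusted p = 0.0291) beside one at -0.026. For Rplp0, a probe from record U89419 fell by 0.28 (adjusted p = 0.0236) beside others at -0.19 and 0.040.

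**Figure D4:**
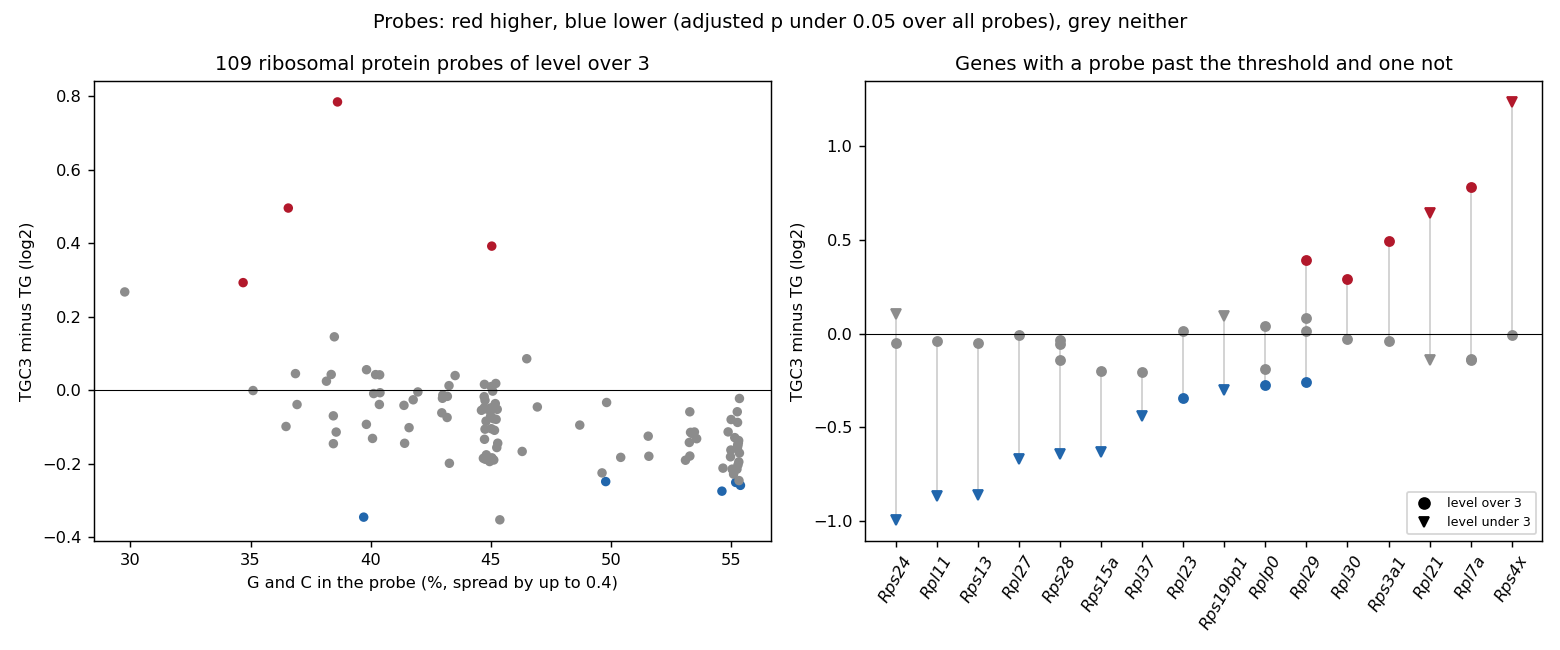
Left, change of each of the 109 brighter ribosomal protein probes (TGC3 minus TG, log2) against its percent G and C, a decline from 0 or above at 35% to below 0 at 55%. Right, the probes of genes with 1 probe past the threshold and another not, where circles have a level over 3 and triangles under 3. The points furthest from 0 are triangles, though a circle of Rpl7a at 0.78 lies further out than several triangles.

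Ribosomal protein genes have relatives and many processed copies in the genome, and a probe can also bind RNA from a copy. Of the 137 member probes with a position in the files, 3 lay on a chromosome other than the gene's in RefSeq, among them those of Rps27 and Rps29. Values for Rps27 (-0.017) and Rps29 (-0.059) are uncertain in this respect.

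The start regions of the members shared features that the rule had not used. RefSeq (GRCm38.p6) gave a promoter for 62 of the 83 genes, 250 bases before to 50 after the annotated start. A C at the start followed by 4 C or T, as in a TOP messenger RNA, was found in 13 of 62 (21.0%) and in 3.01% of all 27025 genes. The motif CTTTC on the gene's strand, from 20 bases before to 20 after the start, was present in 19 (30.6%) against 6.44% of all genes. CCGGAAG on either strand of the whole window, a core to which ETS factors are known to bind, was in 26 (41.9%) against 9.93%, and TATAAA in the 50 bases before the start was in 0 of 62 against 3.15%. Windows of 40 bases around the start follow for 4 lower genes and 3 that did not pass, all holding CTTTC (in capitals):
Rpl28, chr7:4792945-4792984, plus strand: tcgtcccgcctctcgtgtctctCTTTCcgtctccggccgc
Rpl27a, chr7:109519175-109519214, plus strand: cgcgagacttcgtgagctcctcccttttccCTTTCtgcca
Rpl18, chr7:45718051-45718090, plus strand: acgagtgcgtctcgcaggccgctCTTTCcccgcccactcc
Rps10, chr17:27635225-27635264, minus strand: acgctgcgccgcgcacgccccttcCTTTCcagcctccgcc
Rplp2, chr7:141447631-141447670, plus strand: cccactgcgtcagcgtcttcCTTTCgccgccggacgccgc
Rpl5, chr5:107900508-107900547, plus strand: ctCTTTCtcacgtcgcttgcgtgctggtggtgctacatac
Rps27, chr3:90213629-90213668, minus strand: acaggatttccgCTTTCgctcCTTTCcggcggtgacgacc
The 19 members with CTTTC near the start had a median change of -0.14 and 4 lower. The 42 tested members whose window lacked it had -0.076 and 2 lower, Rps15 and Rps19bp1, whose windows are not printed. Among all genes 9.44% were lower. Whether the motif goes with the change was not tested. Annotated starts can lie some bases from those in use, so a window without the motif says only that the letters are not there.

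Fau and Rack1, which the naming rule missed, lay near 0. Fau, which encodes a ubiquitin-like fusion, and Rack1, a scaffold on the small subunit, each had a change of -0.038, and neither passed. The list of further ribosomal proteins also holds the members Rps4l and Rpl39l. In it 2 of 7 were lower (28.6%), Rps4l, already counted among the members, and Rpl7l1, a nucleolar relative of Rpl7 (-0.46 ± 0.11, adjusted p = 0.0262). Rpl22l1, the paralogue that stands in for Rpl22, had a change of 0.0078 ± 0.11. Mitochondrial ribosomal proteins, encoded apart from these, had 1 of 78 higher (Mrpl17, 0.35 ± 0.096, adjusted p = 0.0444), 1 lower (Mrpl49, -0.21 ± 0.060, adjusted p = 0.0484) and a median of -0.064. Among all genes 9.44% were lower and 16.6% higher.

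Elongation and termination factors had 4 of 11 lower (36.4%, where 9.44% of all genes were lower and 16.6% higher), 0 higher and a median of -0.21 (limma, 5 lower and 1 higher at an unadjusted p under 0.05). Abce1, which recycles ribosomes, read 2.61, 2.63 and 2.57 in TGC3 against 2.86, 2.97 and 3.01 in TG, a change of -0.34 ± 0.064 (adjusted p = 0.0143). Eef1d, Eef1g and Eef1b2, the exchange factor subunits of eEF1, fell by 0.33, 0.29 and 0.28 (adjusted p = 0.0270, 0.0234 and 0.0411), while their partner Eef1a1 had a change of 0.18 ± 0.069 (adjusted p = 0.112). The list of other TOP messenger RNAs had 4 of 19 lower (21.1%, against the same 9.44%), 0 higher (2 at an unadjusted p) and a median of -0.033, and 3 of those 4 were the same eEF1 subunits.

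Among initiation factors 2 of 35 were lower and 0 higher (6 and 1 at an unadjusted p), with a median of -0.083. That is 5.71% lower, below the 9.44% of all genes. Eif4b, an activator of the cap helicase and a target of S6 kinase, read 3.25, 3.36 and 3.28 in TGC3 against 3.88, 3.81 and 3.84 in TG (change -0.54 ± 0.061, adjusted p = 0.00358). Eif1b fell by 0.28 ± 0.054 (adjusted p = 0.0158). Both genes had groups well apart.

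Ribosome assembly genes had 18 of 82 lower (22.0%, against 9.44% of all genes) and 2 higher (16.6% of all genes were), with a median of -0.12. Noc3l, which matures the large subunit precursor, fell by 0.50 ± 0.068 (adjusted p = 0.00569), Gnl3, nucleostemin, by 0.37 ± 0.077 (adjusted p = 0.0190) and Nop2, a ribosomal RNA methyltransferase, by 0.36 ± 0.074 (adjusted p = 0.0188). Nop14 and Taf1d were the ones that rose, by 0.32 and 0.27 (adjusted p = 0.0454 and 0.0390).

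Genes around mTOR and TOP control had 7 of 23 lower (30.4%, against 9.44% of all genes) and 0 higher (9 and 0 at an unadjusted p), with a median of -0.15. The largest falls were in inhibitors of the pathway. Ddit4 (REDD1) read 3.32, 3.59 and 3.61 against 4.62, 4.44 and 4.11, a change of -0.88 ± 0.15 (adjusted p = 0.0109). Sesn1 and Sesn3, sestrins that restrain mTORC1, fell by 0.80 ± 0.077 and 0.55 ± 0.10 (adjusted p = 0.00244 and 0.0145). Mtor, Larp1, Rps6kb1 and Myc had changes of 0.21, -0.19, -0.13 and -0.19 and did not pass (adjusted p from 0.126 to 0.148).

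Some marker lists of other cell types differed between the groups beside these results. Among all genes 9.44% were lower and 16.6% higher, the shares to set beside the counts given here. T cell markers were all measured, 12 of 12, and 4 were lower (33.3%) and 0 higher (limma, 6 and 0 at an unadjusted p under 0.05). Their summed linear level was 828 to 895 in TGC3 and 919 to 1022 in TG, without overlap. Of 12 neutrophil markers on the array, 5 were measured and 4 were above background on no array (Csf3r, Cxcr2, Elane and Mmp8), yet the sum was 1.68 to 8.11 in TGC3 against 0.413 to 0.465 in TG. S100a8 was above background on all 3 TGC3 arrays and on 0 TG arrays. The macrophage list had 6 of 13 measured and sums of 1.22 to 3.32 against 0.783 to 0.957, with C1qa, C1qc and Timd4 among those above background on no array. The B cell list had 5 of 10 measured and overlapping sums, 6.08 to 6.54 in TGC3 and 6.22 to 7.52 in TG, with Blk and Pax5 above background on no array. Yet 3 of those 5 were higher, among them Cd79a and Ms4a1 (above background on 0 TG arrays), 1 was lower (Cd22) and the median change was 0.68. Genes above background on 0 TG arrays, S100a8 included, entered the fit through the TGC3 arrays alone. For such genes a call of higher partly follows from that filter and is no separate sign of other cells. Plasma cell sums overlapped as well, with 2 of 4 higher. Dendritic cell sums did not overlap, at 21.2 to 30.3 in TGC3 and 33.1 to 36.9 in TG, although 2 of 5 measured were higher and 1, Ccr9, lower. Cd209a, Clec9a and Siglech of that list were above background on no array, and which cells its other genes read was not tested. Erythroid sums were 0.422 to 0.602 against 0.294 to 0.312, with 2 of 5 higher, and liver endothelial sums 0.826 to 0.917 against 0.702 to 0.777, with 2 of 5 higher. The hepatocyte list had 4 of 19 measured, and its sums of 0.772 to 0.866 and 0.738 to 0.875 overlapped. Sums overlapped too for the lists of CD4 T cells, natural killer cells, platelets, and stellate cells with cholangiocytes. TGC3 2 held the highest S100a8, S100a9 and Lyz2, and without it the members had 9 lower and 1 higher. Their part in the members' values was not tested, and in bulk RNA fewer cells of a type and less RNA per cell cannot be told apart.

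The number of calls varied with the scaling of the arrays and with other settings. Centring on the median moved the median of all genes by -0.18 and gave 57 members lower, at a members' median of -0.26. Cyclic loess gave 0 lower (10 at an unadjusted p under 0.05, limma) and a median of -0.016, quantile normalization 3 lower and -0.038. Rpl21 was called higher under each of these. With the scaling kept, the number lower ran from 0 with no filter on dim probes (17 at an unadjusted p) to 23 with array weights.

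**Figure D5:**
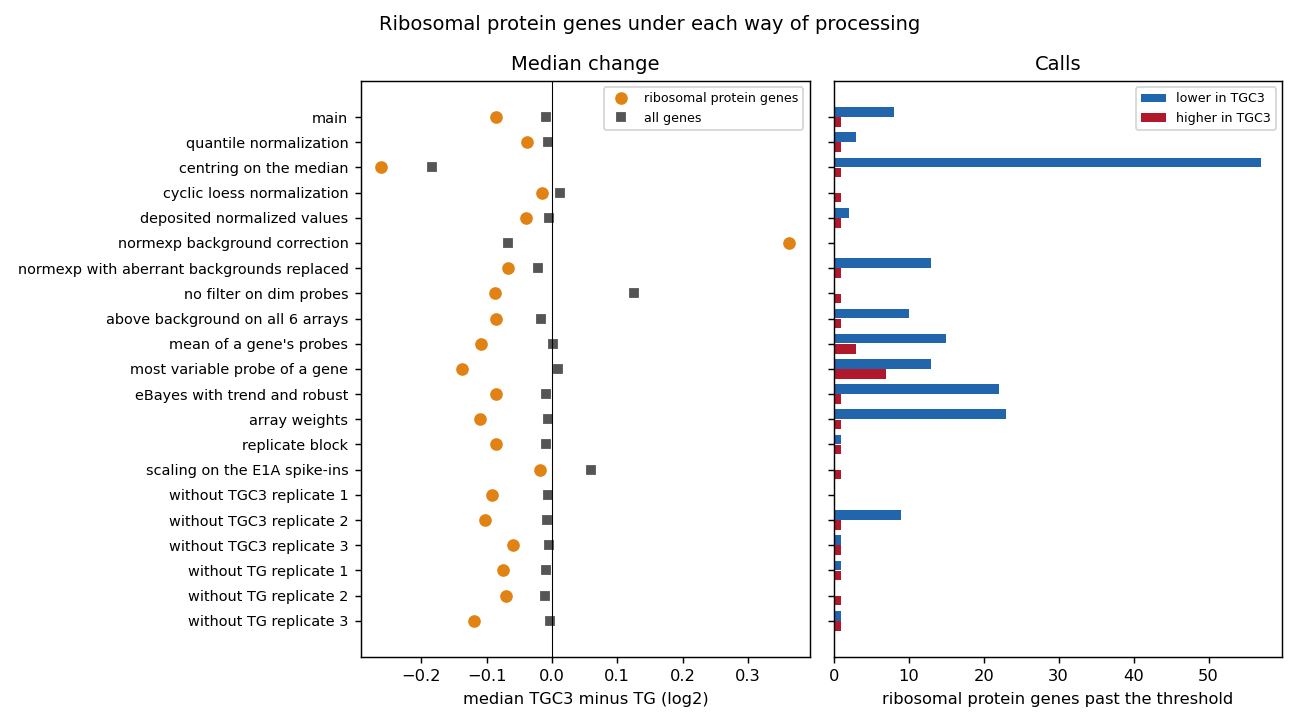
Left, median change (log2) of the ribosomal protein genes (circles) and of all genes (squares) under each way of processing and with each array left out. Right, number of ribosomal protein genes lower or higher in TGC3, which runs from 0 to 57 for lower genes.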

How the data were processed

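Feature Extraction 10.7.3.1 produced the scanner output per the file headers (10.7.1.1 in the submitters' processing notes). The deposited processed signal is a linear intensity, background-subtracted and detrended per the file headers and not yet normalized between arrays. The deposited matrix holds log2 values of equal median (5.57) on every array, whose making is not given in the sources used here; it served as an alternative. Of 45018 spots, 43379 were not controls and held 41174 probes; 11 probes marked as outliers were left out. Each array's log2 signal was centred on its own 75th percentile. A probe entered the fit if 3 or more of the 6 arrays had it well above background (25103 probes), and the brightest such probe stood for its gene (16386 genes). Names were updated from RefSeq (GRCm38.p6), which also gave promoters.

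The comparison of TGC3 with TG used limma 3.58.1 (lmFit, eBayes, two-sided, 3 arrays a group; calls at p under 0.05 after Benjamini-Hochberg adjustment over all genes or all probes) (R 4.3.3; data.table, version 1.17.8). Tables and figures were made with Python 3.11.15, numpy 2.4.6, pandas 2.3.3, scipy 1.17.1 and matplotlib 3.10.9. The procedure was tested on simulated data. Precision is limited by the number of arrays. Columns that mapped to no sample numbered 0.

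The members and lists were chosen with earlier results of these data known. Named are fixed members (stalk, Rpsa, Rps6, Rps4x, Rpl5, Rpl11, Rpl22, Rps19, Rps27a, paralogues, Rps19bp1), the 6 largest rises and falls past the threshold, the 6 brightest members, members with probes called both ways and up to 3 genes a list. Base composition, start regions, the level of 3 and the probes described singly were chosen after values were seen. Some genes and a probe that these rules take are not reported here.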

Additional observations from a re-analysis of the deposited data

How the results depend on the processing

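With 75th percentile scaling 8 ribosomal protein genes were lower and 1 higher in TGC3, and their median change was -0.086. Fewer were lower with quantile normalization (3), the deposited log2 values (2), cyclic loess (0; median -0.016), no filter on dim probes (0), plain normexp (0, and 0 higher; median 0.36) and, added after the data were seen, scaling on the spike-ins (0; median -0.018). More were lower with centring on the median (57; median -0.26), normexp with aberrant backgrounds replaced (13), trend and robust settings (22), array weights (23), the mean of a gene's probes (15, with 3 higher) and the most variable probe (13, with 7 higher). With the replicate block 1 was lower, but samples of the same number share only that number: their deviations correlated at -0.0030, -0.077 and -0.099. Leaving out 1 array gave 0 to 9 lower and 0 or 1 higher, with medians of -0.12 to -0.060. Fits without an array have fewer samples; for the other settings the cause was not tested. Where limma called 0 lower, 10 (cyclic loess), 17 (no filter), 1 (plain normexp) and 1 (spike-ins) had an unadjusted p under 0.05, and with plain normexp 0 were higher at that p.

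Under plain normexp, where no member passed, called genes turned to Rpl18 0.24, Rpl28 0.22, Rps15 0.20, Rps10 0.17, Rpl29 0.17, Rpl27a 0.053, Rps19bp1 0.051, Eef1g 0.16, Eef1d 0.12, Eif1b 0.090, Nop2 0.057, Abce1 0.00793 and Mrpl49 0.12. With the mean of probes Rpl29 was 0.059, Rps4x 0.61 and Rps6 0.48. With the most variable probe Rpl29 was 0.39, Rpl7a 0.78, Rplp0 -0.28, Rps4x 1.24, Rps6 0.96 and Mrpl17 -0.21. A fit on probes that translate into the RefSeq protein was not run, since no protein table was used here.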
